A study of Mus musculus with 3 samples.

Results

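Imprinted genes are expressed from the allele of a single parent, and which allele is silent is set by DNA methylation laid down in the egg or the sperm at short germline methylated regions. The 10 regions described here, at Grb10, Peg10, Mest, Peg3, Snrpn, Kcnq1ot1, Plagl1, Impact, Igf2r and Nnat, are known to be methylated on the maternal allele. They were chosen by name and by the position of their centres on mouse build mm9. No value in these data entered that choice, but earlier results of these data were known when it was made. All 10 were measured, beside 637271 windows of the same shape tiled along chromosomes 1 to 19 and X. Each window covers 2 kb on either side of a centre, and its background is the stretch from 5 to 25 kb away on both sides.

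Mouse embryonic stem (ES) cells of strain C57BL/6, grown on gelatin without feeder cells, were used for chromatin immunoprecipitation and sequencing with an antibody to TET2, to OGT or to H2B S112GlcNAc, a GlcNAc mark on histone H2B. Each of these 3 groups is 1 library, all from the same kind of untreated cell, and no input or IgG library was used here. The TET2 antibody was made in-house, the OGT antibody was a commercial reagent and the third came from a published source. The files list where reads aligned and not their sequence, so the parental alleles were not separated, and no RNA was measured against which the cell type could be checked.

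Methylation at these regions survives the erasure that clears most of the genome in the early embryo, and ZFP57, a zinc finger protein that recognises a methylated TGCCGC hexamer, is known to help keep it. TET2 belongs to the family of enzymes that oxidise 5-methylcytosine and can so start its removal. OGT attaches the sugar N-acetylglucosamine to proteins, and binds TET proteins, and histone H2B with that sugar on a serine is the third target.

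The letters around the start sites of the leading regions are shown for their CG dinucleotides, the sites of methylation, and for the hexamer where it occurs. The second Grb10 start and the Kcnq1ot1 promoter held no hexamer on either strand. They are RefSeq promoters of build GRCm38.p6, from 250 bases before to 50 after a start, and the capitals mark TGCCGC or its reverse complement GCGGCA. No position was converted between the builds, so how far each start lies from the mm9 centre was not computed. The Grb10 starts lie farther apart than the 4 kb window is wide, so at most 1 of them can be in it. Which of them, if any, lies near the Grb10 reads was not determined.
Grb10, chr11:12037371-12037670, minus strand: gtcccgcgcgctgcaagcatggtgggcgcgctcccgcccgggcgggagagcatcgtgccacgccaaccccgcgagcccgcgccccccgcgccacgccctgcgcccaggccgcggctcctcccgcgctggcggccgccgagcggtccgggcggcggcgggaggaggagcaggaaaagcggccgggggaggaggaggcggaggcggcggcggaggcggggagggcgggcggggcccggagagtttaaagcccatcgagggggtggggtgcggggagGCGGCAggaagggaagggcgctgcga
Grb10, second start, chr11:12027922-12028221, minus strand: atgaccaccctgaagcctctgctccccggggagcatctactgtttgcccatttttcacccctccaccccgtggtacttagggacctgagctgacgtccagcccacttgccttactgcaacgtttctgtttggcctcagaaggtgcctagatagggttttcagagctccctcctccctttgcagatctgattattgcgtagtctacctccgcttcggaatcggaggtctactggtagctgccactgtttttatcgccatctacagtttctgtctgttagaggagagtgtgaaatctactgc
Kcnq1ot1, chr7:143296498-143296797, minus strand: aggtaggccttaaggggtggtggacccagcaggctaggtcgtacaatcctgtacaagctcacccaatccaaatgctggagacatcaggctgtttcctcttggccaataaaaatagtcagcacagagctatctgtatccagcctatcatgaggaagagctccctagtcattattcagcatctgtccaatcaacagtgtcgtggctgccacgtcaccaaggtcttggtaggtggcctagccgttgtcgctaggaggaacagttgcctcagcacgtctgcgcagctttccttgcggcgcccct
Snrpn, start shared with Snurf, chr7:60005150-60005449, minus strand: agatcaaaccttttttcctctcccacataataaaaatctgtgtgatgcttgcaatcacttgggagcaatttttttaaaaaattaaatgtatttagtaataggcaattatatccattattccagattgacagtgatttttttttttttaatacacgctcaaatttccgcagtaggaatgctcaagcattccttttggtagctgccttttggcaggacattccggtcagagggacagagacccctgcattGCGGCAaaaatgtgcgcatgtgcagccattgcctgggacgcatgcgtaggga

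The Grb10 starts differed widely, with 45 CG dinucleotides in the first sequence and 9 in the second. The Kcnq1ot1 promoter held 9 and the shared Snrpn promoter 7. Over the 32817 promoters of this length the median was 7. Of the 10 genes, 8 had an entry in the promoter table and Peg10 and Impact had none. The hexamer, searched on both strands, was in 6 of their 14 entries (1 each of Grb10, Snrpn, Plagl1 and Nnat, and 2 overlapping ones of Mest), against 11.6% of all promoters. These entries are gene starts and not the measured regions. Those of Snrpn began between chr7:60005150 and chr7:60450128, each farther than 4 kb from the next, so at most 1 can lie in its window. The 6 of 14 is therefore not a share of the measured regions. The hexamer contains a CG itself, so the count of CG and the hexamer are not separate features. A match describes the letters in these windows and is not a measured site.

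Reads of each library were more concentrated at the regions than in their flanks. Positions with at least 1 read, each counted once per strand, summed over the 10 windows to 240 in the TET2 library, 98 in OGT and 147 in H2B S112GlcNAc. Their density was 4.29-fold that of the flanks for TET2 (exact 95% interval 3.675 to 5.003), 3.12-fold for OGT (2.46 to 3.93) and 2.25-fold for H2B S112GlcNAc (1.87 to 2.70). These intervals come from the binomial split between window and flanks by the Clopper-Pearson method. They cover counting error alone, because each antibody had a single library and variation between preparations was not measured. The medians over the 10 regions were 2.89, 3.04 and 1.96, against 0.909, 0.909 and 0.938 over the tiled windows.

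A region was counted as denser where its fold was at least 2 and the interval lay above 1. By this rule TET2 was denser at 7 of the 10 regions, OGT at 5 and H2B S112GlcNAc at 4. The same rule was met by 4.41% of the tiled windows in the TET2 library, 2.95% in OGT and 3.55% in H2B S112GlcNAc. Grb10 and Snrpn met it in all 3 libraries, which 0.468% of tiled windows did. Mest, Peg3, Kcnq1ot1 and Impact met it in 2 libraries, Peg10 and Plagl1 in TET2 alone, and Igf2r and Nnat in none. The tiled windows were not matched for CpG content or start sites, so whether other CpG-rich promoters gave like folds was not tested.

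**Figure D1:**
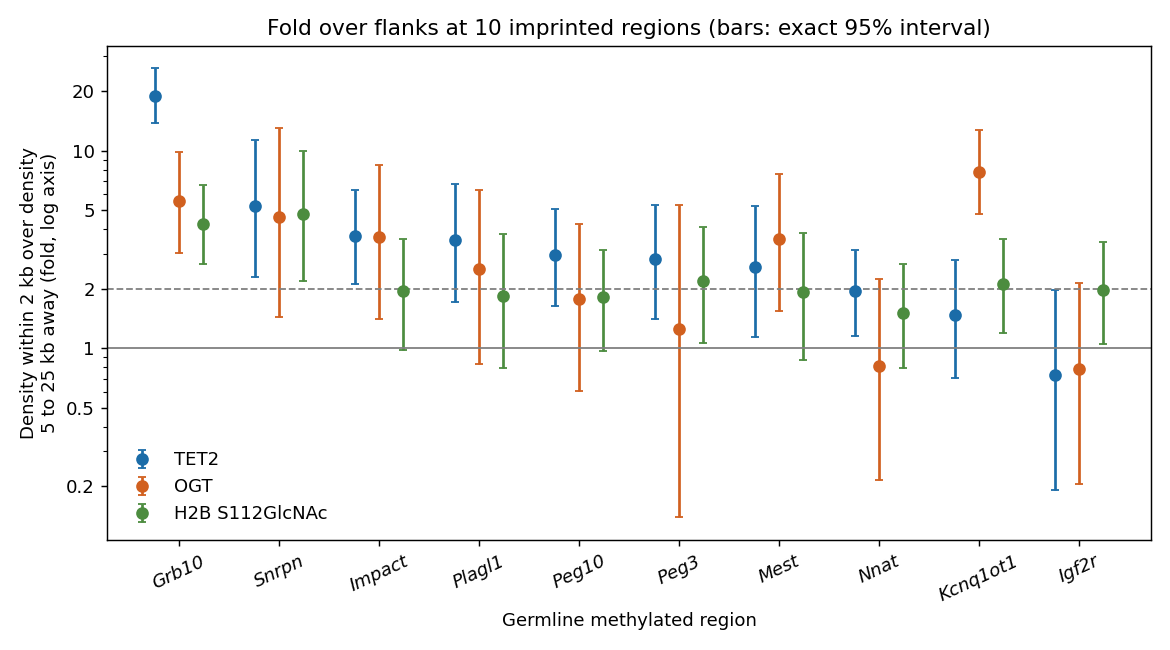
Density of distinct positions within 2 kb of each region's centre over the density 5 to 25 kb away, on a log axis, for the TET2, OGT and H2B S112GlcNAc libraries, with exact 95% intervals and regions ordered by the TET2 fold. TET2 at Grb10 (18.9) and OGT at Kcnq1ot1 (7.80) are the highest points of their libraries, and the dashed line marks 2-fold.

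Grb10 encodes an adaptor protein that dampens insulin and growth factor signalling. Its window, chr11:11923601-11927600, held 119 TET2, 20 OGT and 29 H2B S112GlcNAc positions, where the genome means would give 5.16, 2.94 and 6.29 in 4 kb. All 3 libraries were thus high here, and TET2 by far the most. The fold over the flanks was 18.9 for TET2 (13.8 to 26.1), 5.56 for OGT (3.05 to 9.86) and 4.26 for H2B S112GlcNAc (2.66 to 6.68). The TET2 interval lay above that of every other region, and 0.0107% of the tiled windows had as high a TET2 fold.

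The TET2 reads at Grb10 formed a sharp peak to the right of the centre. The 250 bp from 750 to 1000 bp right of the centre held 72 of the 119 positions, and 115 of the 119 lay to the right. In the same bin H2B S112GlcNAc also had its highest count, 6, while the highest OGT bin, with 5, was the one from 500 to 750 bp. An enriched region, called in windows of 500 bp against the local background, was found for TET2 at chr11:11925501-11927000, and with its 116 positions it ranked 39 of 9659 TET2 regions. The H2B S112GlcNAc region, chr11:11926001-11926750, held 14 positions and ranked 772 of 2779. The peak held 140 reads, or 1.21 per position, so it did not rest on repeats of a few positions.

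Grb10 was also the single region of the 10 whose window touched a 1 kb bin in the top 0.1% of all 3 libraries. That bin, chr11:11926001-11927000, held 98 TET2, 9 OGT and 15 H2B S112GlcNAc positions, where 16, 8 and 13 were needed. The OGT and H2B S112GlcNAc counts were therefore just past the limit. Across the genome, 1014 bins of 1 kb were in the top 0.1% of all 3 libraries. The share of tiled windows that touched such a bin is not given here. Without such bins the Grb10 fold was 4.44 for TET2 (2.58 to 7.38), since the Grb10 bin holds most of the peak.

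Kcnq1ot1 is a long noncoding RNA that runs antisense within Kcnq1 and silences neighbouring genes on the paternal chromosome. Its window, chr7:150479801-150483800, held 32 OGT, 11 TET2 and 18 H2B S112GlcNAc positions. OGT was the highest of the 3 here, and TET2 did not meet the 2-fold rule. The fold was 7.80 for OGT (4.76 to 12.7), 1.47 for TET2 (0.702 to 2.78) and 2.12 for H2B S112GlcNAc (1.20 to 3.55). The TET2 call depended on the setting, since within 1 kb of the centre the Kcnq1ot1 TET2 fold was 2.67 (1.23 to 5.18) and against the genome mean 2.13 (1.065 to 3.82), and both met the rule. As high an OGT fold was found in 0.115% of tiled windows. The OGT reads were gathered just left of the centre, with 11 and 17 positions in the 2 bins of 250 bp from 500 bp left up to the centre. The OGT region there, chr7:150481001-150482250, held 29 positions and ranked 227 of 1817 by count. It held 34 reads, or 1.17 per position.

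**Figure D2:**
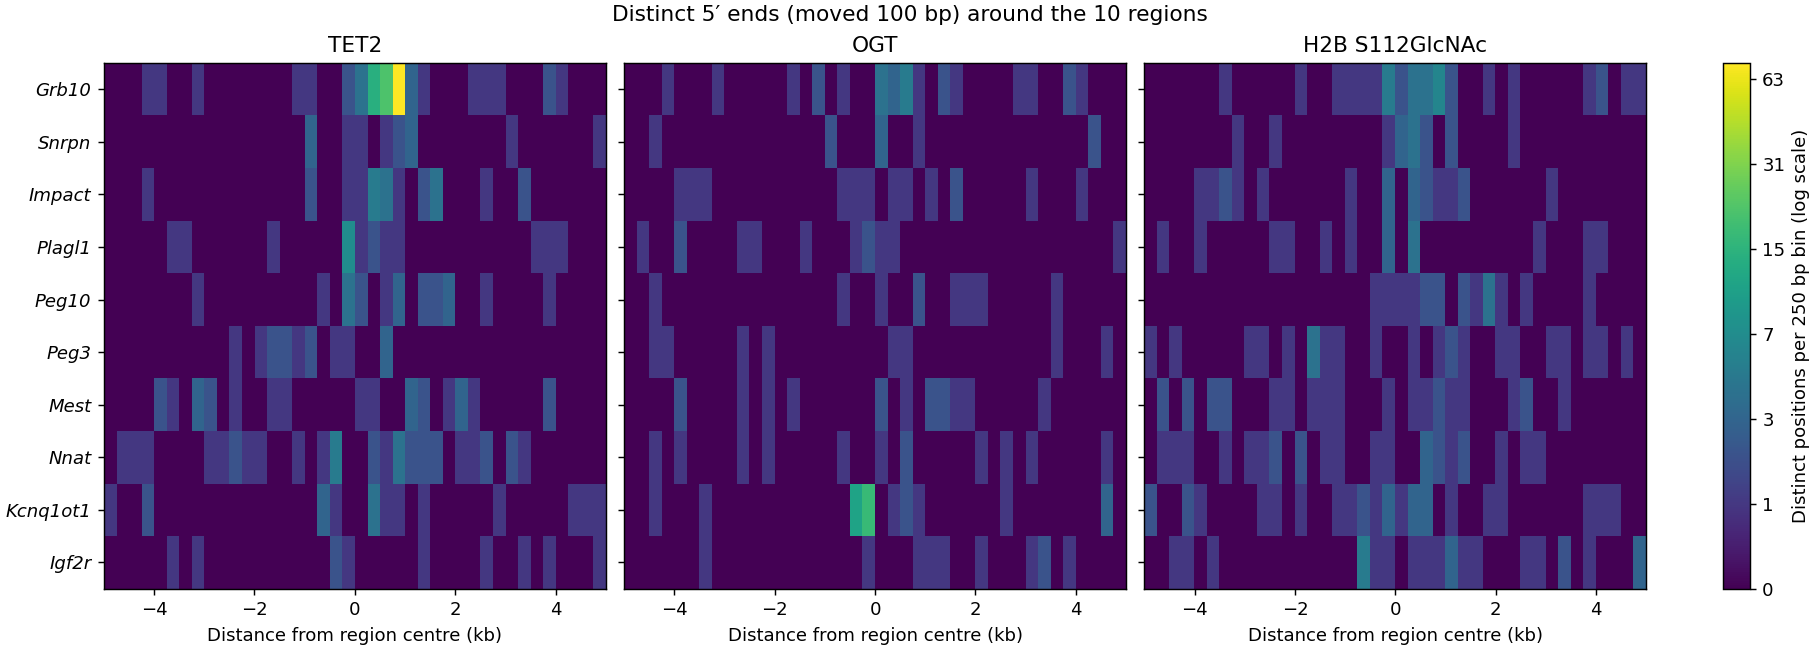
Distinct positions per 250 bp bin over 10 kb around each centre, by library, on a log colour scale. The TET2 peak of Grb10 (72 in its highest bin) and the OGT block of Kcnq1ot1 (17) stand out, while no bin of the other 8 regions held more than 7.

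The order of the strands differed between these 2 peaks, which are of different libraries. In chromatin fragments read from both ends, minus-strand 5′ ends lie to the right of plus-strand 5′ ends by about the fragment length. In the densest 500 bp of the TET2 peak at Grb10, before any move of the ends, the median of 53 minus-strand ends lay 118 bp to the right of the median of 39 plus-strand ends. In the densest 500 bp of OGT at Kcnq1ot1, the median of 10 minus-strand ends lay 45 bp to the left of that of 18 plus-strand ends, a difference of -45.0 bp. All 28 of these OGT ends lay between -485 and -77 bp, left of the centre, with both strands spread over the same block. OGT at Grb10 had the same sign, with the median of 12 minus-strand ends to the left of that of 8 plus-strand ends in its 4 kb window, a difference of -186 bp. H2B S112GlcNAc had the other sign at both, with the minus-strand median 157.5 bp to the right at Grb10 (14 plus and 15 minus ends) and 256 bp at Kcnq1ot1 (9 and 9). TET2 at Kcnq1ot1, with 7 plus and 4 minus ends, had its minus-strand median to the left. With so few ends these medians are coarse, and whether the order of the strands goes with the library or with the site cannot be told apart here.

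**Figure D3:**
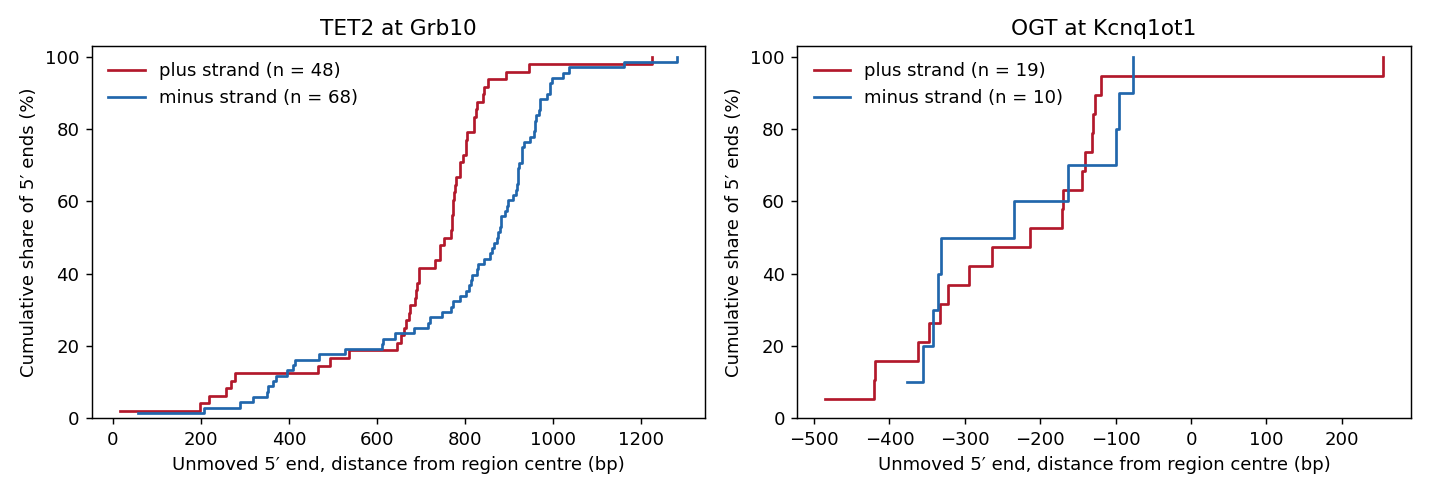
Cumulative share of distinct 5′ ends on each strand, by distance from the region's centre, for TET2 at Grb10 (48 plus and 68 minus ends) and OGT at Kcnq1ot1 (19 and 10). At Grb10 the minus-strand curve is shifted to the right of the plus-strand curve, and at Kcnq1ot1 the curves cross.

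The Igf2r region gave low counts in TET2 and OGT. Igf2r is the receptor that clears insulin-like growth factor 2, and the methylated region lies in an intron at the start of the antisense RNA Airn, which like Kcnq1ot1 silences genes on the paternal chromosome. The window, chr17:12932901-12936900, held 4 TET2, 4 OGT and 15 H2B S112GlcNAc positions. H2B S112GlcNAc was thus the single library with more positions than the genome mean would give by a clear margin, though it did not reach the 2-fold rule. The folds were 0.727 for TET2 (0.191 to 1.97), 0.784 for OGT (0.206 to 2.13) and 1.97 for H2B S112GlcNAc (1.05 to 3.46). At these counts a TET2 fold just under 2 was not excluded by its interval. The highest H2B S112GlcNAc bin, from 750 to 500 bp left of the centre, held 5 of the 15 positions.

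Snrpn, which encodes a protein of the splicing machinery made mainly in neurons, had the sparsest surroundings of the 10. Its window, chr7:67147001-67151000, held 11 TET2, 6 OGT and 12 H2B S112GlcNAc positions. The flanks held 0.525, 0.325 and 0.625 positions per kb, the lowest of the 10 in each library. The folds over these flanks were 5.24 for TET2 (2.28 to 11.4), 4.62 for OGT (1.44 to 13.0) and 4.8 for H2B S112GlcNAc (2.20 to 9.91). Set against the genome mean, an alternative chosen after seeing the data, they were 2.13, 2.04 and 1.91, and OGT and H2B S112GlcNAc no longer met the rule. The H2B S112GlcNAc positions lay to the right of the centre in 11 of 12 cases.

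Impact and Plagl1 had TET2 regions close to the centre. Impact encodes an inhibitor of the kinase GCN2, which slows translation under amino acid shortage. Its window, chr18:13129501-13133500, held 20 TET2, 8 OGT and 13 H2B S112GlcNAc positions, with folds of 3.70 (2.10 to 6.29), 3.64 (1.4 to 8.48) and 1.94 (0.982 to 3.55). TET2 and OGT both met the rule here, and H2B S112GlcNAc stayed just short of 2-fold. It met the rule under 4 of 9 alternative settings, with an Impact fold of 2.14 with every read counted, 2.985 within 1 kb, 3.58 within 0.5 kb and 2.07 against the genome mean. The TET2 region, from 250 to 750 bp right of the centre, held 9 positions. Plagl1 encodes a zinc finger transcription factor that restrains cell growth. Its window, chr10:12808501-12812500, held 13 TET2, 6 OGT and 9 H2B S112GlcNAc positions, and the folds were 3.51 (1.71 to 6.76), 2.50 (0.836 to 6.28) and 1.84 (0.793 to 3.78). The 250 bp left of the centre held 7 of the 13 TET2 positions. The signal there was narrow but rested on few positions, with at most 2 OGT and 4 H2B S112GlcNAc positions in any 250 bp bin. Within 0.5 kb of the centre the Plagl1 folds were 10.8 for TET2 (4.79 to 22.2), 8.33 for OGT (2.48 to 22.3) and 5.71 for H2B S112GlcNAc (2.18 to 12.7). All 3 libraries met the rule at that width, for which the share of tiled windows is not given here.

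At Peg10, Peg3 and Mest TET2 met the rule without an enriched region. Peg10 derives from a retrotransposon and is needed for the placenta, and its start faces that of Sgce. The Peg10 window, chr6:4695401-4699400, held 18 TET2, 6 OGT and 15 H2B S112GlcNAc positions, with folds of 2.95 (1.64 to 5.06), 1.76 (0.606 to 4.25) and 1.81 (0.968 to 3.16). Its reads spread to the right of the centre, with 13 of the 18 TET2 and 13 of the 15 H2B S112GlcNAc positions there.

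Peg3 encodes a zinc finger protein and shares its promoter region with Usp29. Its window, chr7:6680501-6684500, held 13 TET2, 2 OGT and 12 H2B S112GlcNAc positions, with folds of 2.83 (1.401 to 5.32), 1.25 (0.139 to 5.32) and 2.18 (1.06 to 4.12). OGT was the lowest of the 10 here in its count. Unlike at Peg10, 10 of the 13 TET2 positions lay left of the centre, and the H2B S112GlcNAc maximum, 4 positions, was from 1750 to 1500 bp left. In a random draw down to the depth of OGT, Peg3 no longer met the rule for TET2 or H2B S112GlcNAc. Its TET2 fold was then 1.33 (0.341 to 3.78). The H2B S112GlcNAc fold rose to 2.69, but its interval was no longer clear of equal density (0.987 to 6.37). A single draw is reported, so how far these folds vary between draws was not tested.

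Mest encodes a protein of the hydrolase family that is abundant in the mesoderm. The Mest window, chr6:30685001-30689000, held 10 positions in each of the 3 libraries. OGT, the shallowest library, had the highest fold, 3.57 (1.55 to 7.57), against 2.56 for TET2 (1.14 to 5.23) and 1.92 for H2B S112GlcNAc (0.871 to 3.83). The positions lay away from the stated centre, with 8 of 10 for TET2 and 9 of 10 for OGT on its right, and within 1 kb of it the TET2 fold was 1.03 (0.12 to 3.96). TET2 and OGT then no longer met the rule at Mest.

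Nnat, a small membrane protein of the nervous system whose gene lies in an intron of Blcap, met the rule in no library although its TET2 count was high. The window, chr2:157384601-157388600, held 21 TET2, 4 OGT and 14 H2B S112GlcNAc positions. The TET2 count was the second highest of the 10, but the flanks were also dense, with 2.70 TET2 positions per kb. The folds were 1.94 for TET2 (1.16 to 3.12), 0.816 for OGT (0.214 to 2.23) and 1.51 for H2B S112GlcNAc (0.792 to 2.65). The TET2 call was gained under 4 of 9 alternative settings. The Nnat TET2 fold was then 2.41 (1.24 to 4.29) within 1 kb, 2.59 (1.02 to 5.53) within 0.5 kb, 2.22 (1.345 to 3.48) with flanks out to 50 kb and 4.07 (2.52 to 6.23) against the genome mean. Reads were spread over 22 of the 40 TET2 bins within 5 kb, the most of any region in that library.

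Few neighbours in the order of the folds were told apart. In TET2 the interval of Grb10 lay above that of Snrpn, the next in order, and in no other case did the interval of a region lie above that of its next neighbour, in any of the 3 libraries. Of the 45 pairs of regions, the intervals did not overlap in 11 for TET2, in 5 for OGT and in 1 for H2B S112GlcNAc. Beyond the 9 TET2 pairs with Grb10, these were Snrpn and Impact above Igf2r. For OGT they were Kcnq1ot1 above Peg10, Nnat and Igf2r, and Grb10 above Nnat and Igf2r. For H2B S112GlcNAc Grb10 lay above Nnat. The positions over all 10 were concentrated within 1 kb. The pooled TET2 density was 6.40 per kb within 0.5 kb of the centre, 13.0 from 0.5 to 1 kb, 2.30 from 1 to 2 kb and 1.12 from 2 to 5 kb, with a genome mean of 1.29. OGT density fell from 5.30 to 2.40, 1.05 and 0.917 per kb, with a mean of 0.734. H2B S112GlcNAc density fell from 5.40 to 4.50, 2.40 and 1.43 per kb, with a mean of 1.57. From 2 to 5 kb all 3 libraries were near their genome mean, at 0.867, 1.25 and 0.912 of it.

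Grb10 and Kcnq1ot1 set much of the pooled values. Without both, an alternative chosen after seeing the data, the 8 other regions held 110 TET2, 46 OGT and 100 H2B S112GlcNAc positions. Their folds were 2.61 for TET2 (2.10 to 3.23), 1.94 for OGT (1.38 to 2.67) and 2.00 for H2B S112GlcNAc (1.60 to 2.48). Each interval lay above 1, and the 3 overlapped one another. Within 0.5 kb of the centre the 8 regions had 3.78, 2.90 and 2.70 times the genome mean.

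**Figure D4:**
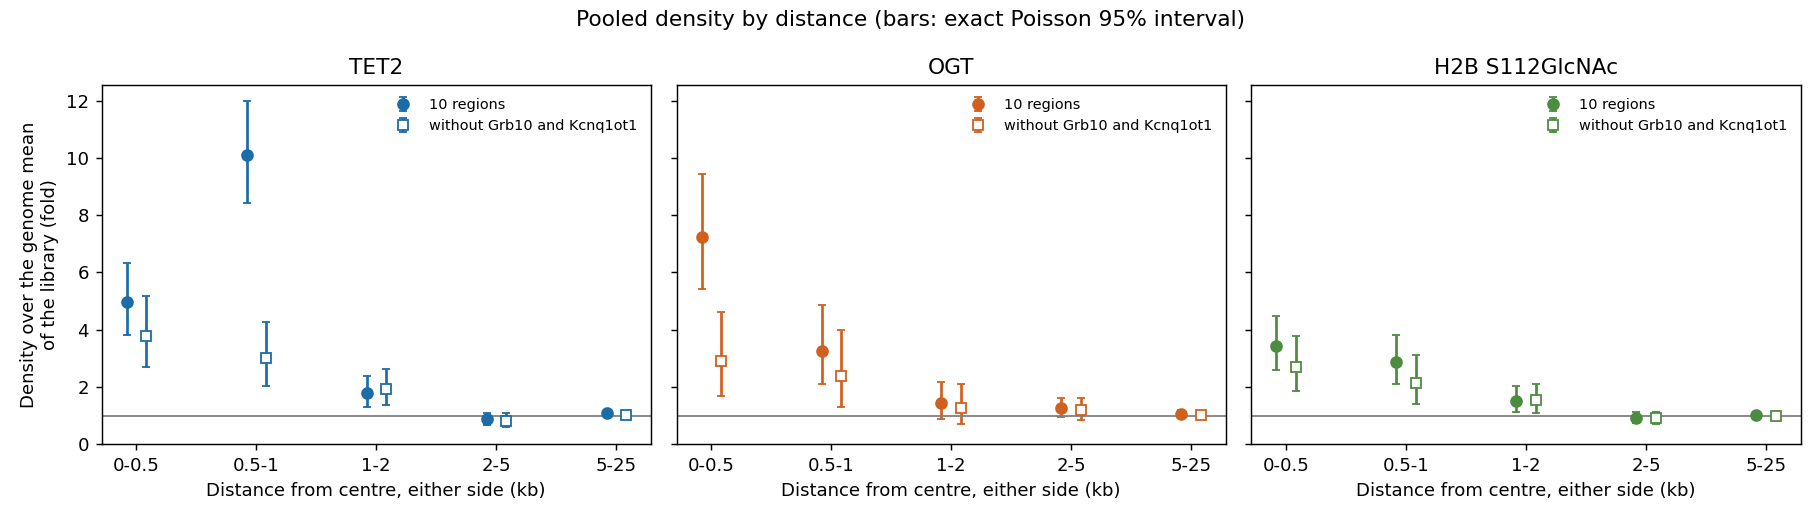
Pooled density by distance from the centre, as a multiple of each library's genome mean, with exact Poisson 95% intervals, for all 10 regions (filled) and without Grb10 and Kcnq1ot1 (open). Density is highest within 1 kb and near the genome mean from 2 kb outwards, and the gap between filled and open points is widest for TET2 from 0.5 to 1 kb and for OGT within 0.5 kb.

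Enriched regions lay within 2 kb of 3 of the 10 centres for TET2 (Grb10, Plagl1 and Impact), of 1 for OGT (Kcnq1ot1) and of 1 for H2B S112GlcNAc (Grb10). Of the tiled windows, 1.66% overlapped a region in the TET2 library, 0.313% in OGT and 0.474% in H2B S112GlcNAc. With a stricter Poisson tail, below 1e-05 after Benjamini-Hochberg adjustment, Grb10 was the single centre left for TET2. OGT kept Kcnq1ot1 and H2B S112GlcNAc kept Grb10. Genome-wide that tail kept 3168 of the 9659 TET2 regions, 633 of 1817 for OGT and 812 of 2779 for H2B S112GlcNAc. The share of tiled windows at this tail was not computed.

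Between libraries, scaled to library size, the ratios with the intervals farthest from 1 were at the same 2 places. Grb10 held 36.1 TET2, 10.7 OGT and 7.21 H2B S112GlcNAc RPM, the positions in the window scaled to the size of the library. TET2 was 3.39-fold OGT there (2.10 to 5.75) and 5.01-fold H2B S112GlcNAc (3.31 to 7.80). Both intervals held 1 under 2 of 9 alternatives, at 1.09 (0.501 to 2.498) and 1.83 (0.888 to 3.89) without the extreme bin, and at 1.63 (0.661 to 4.56) and 2.03 (0.947 to 4.56) within 0.5 kb of the Grb10 centre, where little of the TET2 peak lies. Kcnq1ot1 held 17.04 OGT, 3.34 TET2 and 4.48 H2B S112GlcNAc RPM, and OGT was 5.11-fold TET2 (2.51 to 11.2) and 3.81-fold H2B S112GlcNAc (2.07 to 7.21). Both Kcnq1ot1 intervals stayed clear of 1 under all 9 alternatives. At Nnat TET2 was 2.99-fold OGT, with an interval that only just cleared 1 (1.01 to 11.98) and held it under 4 of the 9. The ratio of TET2 to OGT at Peg3, 3.70, was larger than those at Grb10 and Nnat, but rested on 13 and 2 positions and its interval held 1 (0.838 to 33.8).

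TET2 lay above OGT, with an interval clear of 1, at 2 of the 10 regions and below it at 1. It lay above H2B S112GlcNAc at 1 and below it at 0. OGT lay above H2B S112GlcNAc at 1 and below it at 0. Among tiled windows with at least as many positions as the sparsest of the 10, the shares were 1.54% and 1.19% for TET2 above and below OGT, 4.42% and 1.20% for TET2 above and below H2B S112GlcNAc, and 1.91% and 1.13% for OGT above and below H2B S112GlcNAc. Each comparison is of 1 library with 1 library and has no replicate check. At the remaining regions the intervals held 1 and were wide, for example 0.354 to 3.44 for TET2 over OGT at Snrpn, so moderate differences were not detectable at this depth.

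Over the 10 windows together, TET2 was 1.395-fold OGT (1.10 to 1.78) and 1.99-fold H2B S112GlcNAc (1.62 to 2.46), and OGT was 1.43-fold H2B S112GlcNAc (1.09 to 1.86). These ratios turned on single regions. Without Grb10 the ratio of TET2 to OGT was 0.884 (0.659 to 1.19) and without Kcnq1ot1 it was 1.98 (1.497 to 2.64). Without Grb10 the interval of TET2 over H2B S112GlcNAc also held 1, at 1.25 (0.963 to 1.63), and so did that of OGT over H2B S112GlcNAc without Kcnq1ot1, at 1.096 (0.802 to 1.49). Drawn down to equal depth, TET2 was 1.20-fold OGT, with an interval that held 1 (0.913 to 1.59). Without both, TET2 was 1.36-fold OGT (0.957 to 1.97) and 1.34-fold H2B S112GlcNAc (1.01 to 1.78), and OGT was 0.985-fold H2B S112GlcNAc (0.679 to 1.41).

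**Figure D5:**
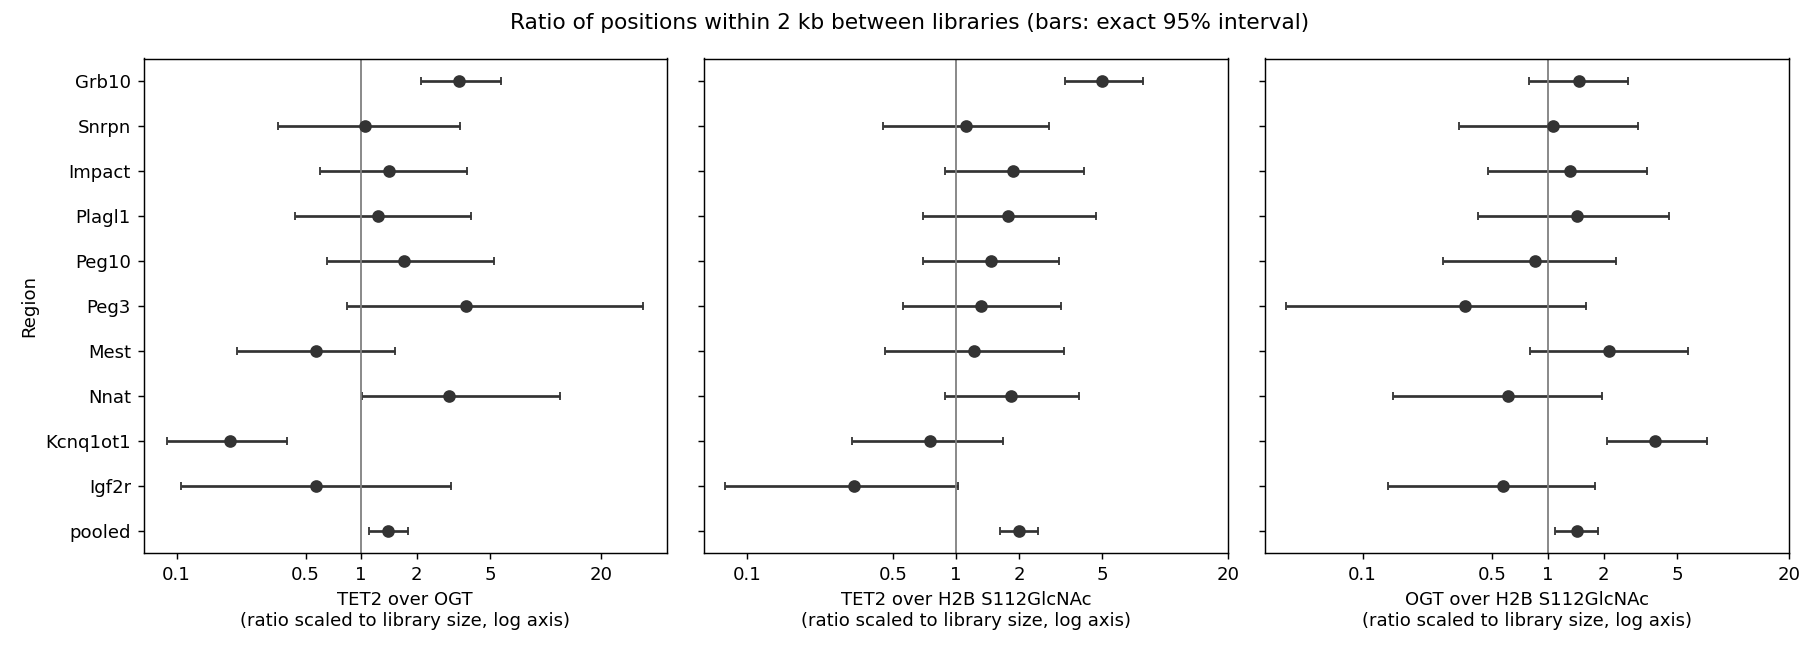
Ratio of positions within 2 kb of each centre between pairs of libraries, scaled to library size, on a log axis with exact 95% intervals, for the 10 regions and their sum. Grb10 stands to the TET2 side of both TET2 panels and Kcnq1ot1 to the OGT side of both OGT panels, while most other intervals cross 1.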

How the data were processed

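The 3 deposited files list aligned reads of 44 bp, 1 per line, and the deposited score was 255 in every line. The submitters' processing notes name mm9, Bowtie 0.12.2 and CASAVA 1.4 without their roles. Their treatment of repeats and multiple matches is not stated in the labels or files used. Of the 1000 positions with the most reads, TET2 and OGT shared 895 in place and 782 after a 1 bp move, so the coordinates were taken as 1 system.

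Depth was 3832237 TET2, 2179445 OGT and 4647963 H2B S112GlcNAc reads. Reads sharing position and strand counted as 1, 5′ ends were moved 100 bp, and windows and 40 kb of flanks were counted with numpy 2.4.6 and scipy 1.17.1 in Python 3.11.15. Enriched regions were windows of 500 bp every 250 bp, with a Benjamini-Hochberg adjusted Poisson p below 0.01 and at least 4-fold over the highest of the genome, 10 kb and 50 kb means. The 10 kb and 50 kb means left out the window and 500 bp on each side, and the genome mean left out nothing. Scripts were tested on simulated data.

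Every one of the 10 regions is named. Sequences shown are those of Grb10, Kcnq1ot1 and Snrpn, the 3 regions with the highest fold in any library. Other germline methylated regions were not analysed here. The regions and rules were chosen with earlier results of these data known. Alternatives changed the window, flanks, move, depth, scaling, repeats, extreme bins and thresholds. With 1 library per antibody no test between antibodies was made.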

Additional observations from a re-analysis of the deposited data

How the results depend on the processing

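No paired analysis was possible because there was a single library for each antibody. Of 270 folds and 270 ratios at single regions under alternatives, 251 and 262 stayed within the reported 95% interval, and 19 and 8 moved outside it. None of these whose interval lay clear of 1 went to the other side of 1 (0 of each), while 8 folds and 16 ratios with intervals that held 1 did so. Pooled ratios did change side. TET2 over OGT, above 1 as reported, fell below 1 within 0.5 kb, without extreme bins and without Grb10. OGT over H2B S112GlcNAc fell below 1 without both Grb10 and Kcnq1ot1. The intervals of these 4 values held 1. With 1 kb on each side the pooled fold was 6.94 in TET2, 4.90 in OGT and 3.03 in H2B S112GlcNAc. With 0.5 kb on each side they were 6.75 for OGT and 3.31 for H2B S112GlcNAc, and the pooled ratios were 0.688 for TET2 over OGT, 1.45 for TET2 over H2B S112GlcNAc and 2.10 for OGT over H2B S112GlcNAc. The Grb10 peak lies mostly outside that narrower window. The pooled TET2 fold was 3.49 drawn down to the smallest library and 2.60 without extreme bins, where TET2 over OGT was 0.909 and TET2 over H2B S112GlcNAc 1.31. Leaving out each region in turn gave 2.44 (without Grb10) to 4.86 for TET2, 2.42 (without Kcnq1ot1) to 3.57 in OGT and, in H2B S112GlcNAc, 2.02 to 2.38. TET2 over OGT was 0.884 to 1.98 without Grb10 or Kcnq1ot1, TET2 over H2B S112GlcNAc 1.25 to 2.17, and OGT over H2B S112GlcNAc 1.10 to 1.42. Without both, the folds were 2.61 for TET2 and 1.94 for OGT, and the ratios 1.34 for TET2 and 0.985 for OGT over H2B S112GlcNAc. Asking for 3-fold left 4 regions for TET2 (2.04% of tiled windows) and 2 for H2B S112GlcNAc (1.07%). An adjusted Poisson tail of 1e-05 left 1 centre with an enriched region in each library. These rules are stricter by construction, and for other changes the cause was not tested. Chosen after seeing the data were the genome mean as background, leaving out both regions, and leaving out a region from the ratios. Depth limits the OGT values most, with 2 to 32 positions per window.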

Other observations

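Which calls held under other settings differed between regions. Over 9 alternatives, which changed the repeats, window, flanks, move, depth, extreme bins or background, TET2 met the 2-fold rule in all 9 at Grb10, Peg10, Plagl1 and Impact, in 8 at Snrpn, in 7 at Peg3 and in 5 at Mest. OGT did so in all 9 at Grb10, Kcnq1ot1 and Impact, in 8 at Snrpn and in 7 at Mest. H2B S112GlcNAc did so in all 9 at Grb10, in 8 at Snrpn and Kcnq1ot1 and in 4 at Peg3. Of the 14 pairs of region and library that did not meet the rule as reported, 8 met it under some alternative. These were TET2 at Nnat (4 of 9) and Kcnq1ot1 (2), OGT at Plagl1 (3), and H2B S112GlcNAc at Impact (4), Peg10 (3), Plagl1 (2), Igf2r (2) and Nnat (1). The share of tiled windows meeting the rule under these 9 alternatives is not given here. How many other windows would gain or lose a call in this way is therefore not known. TET2 at Igf2r, OGT at Peg10, Peg3, Igf2r and Nnat and H2B S112GlcNAc at Mest met it under 0 of the 9.

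Outside the windows, a single further enriched region lay within 25 kb of any of the 10 centres. It was a TET2 region at chr6:4685751-4686500, which ends at -10900 bp, left of the Peg10 centre, and held 8 TET2, 2 OGT and 8 H2B S112GlcNAc positions. For scale, the TET2 library had 9659 enriched regions over 255759 stretches of 10 kb that held reads. How often any place in the genome has a region this near was not computed, so the region is not read as a trait of Peg10. At the Grb10 H2B S112GlcNAc region H2B S112GlcNAc itself gave 3.48 RPM, against 29.1 for TET2 and 4.26 for OGT over the same stretch.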
